A study of Mus musculus with 12 samples.

Results

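Cytochrome P450 enzymes are haem proteins that insert an oxygen atom into their substrates, and their mouse genes carry the root symbol Cyp followed by a family number, a subfamily letter and a gene number. Every gene of the deposited expression table whose symbol has exactly that form was taken, except the bile acid synthesis genes Cyp7a1 and Cyp8b1, which gave 89 genes of the 34348 in the table. They fall into 13 families and 35 subfamilies. Another 19 symbols that begin with Cyp were not counted, either because they are the excepted pair or because their form differs, such as pseudogenes, Cyp51, Cyp4a12a and Cyp3a41a.

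RNA from small intestine and liver of C57BL/6 mice was sequenced, with 3 libraries in each of 4 groups. The groups are liver of mice given LCWE, liver of mice given PBS, small intestine of mice given LCWE and small intestine of mice given PBS, the saline control. LCWE is not spelled out in the labels; in mouse vasculitis work the letters stand for Lactobacillus casei cell wall extract, which induces coronary inflammation. Column names of the authors' comparison table read LCWECFA for the treated groups without saying what CFA is, so the effect of LCWE here means the difference between these groups. The labels give no dose, time, age, sex or segment of the small intestine, nor whether each library comes from its own animal; if not, p-values cover only a technical spread.

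P450 enzymes of families Cyp1 to Cyp3 mostly oxidise drugs, toxins and steroids, and those of family Cyp4 mostly fatty acids and eicosanoids. Families with higher numbers mostly serve set steps in sterol, bile acid, steroid hormone, retinoid and vitamin D metabolism. Liver is the main site of drug oxidation and the enterocyte, the absorptive cell of the small intestine, is the first site that swallowed compounds meet. Many of the drug-metabolising genes are switched on by ligand-sensing receptors, among them AHR for Cyp1, CAR (Nr1i3) for Cyp2b and PXR (Nr1i2) for Cyp3a.

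Levels are in RPKM, which corrects read numbers for gene length and for library depth, so that levels of genes can be compared per length. Reads assigned to genes ranged from 30294594 to 44921885 per library. Genes with at least 0.5 RPKM in at least 3 libraries of a tissue were tested with limma on log2(RPKM + 0.5), a scale that understates changes of low genes, and called at a Benjamini-Hochberg adjusted p below 0.05 over all genes tested. Of the 89 Cyp genes, 58 were tested in liver, 43 in small intestine, 36 of these in both, and 24 in neither. Xist stayed at or below 0.0527 RPKM and the 4 Y-linked genes examined were expressed in all 12 libraries, the pattern of male mice.

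Some libraries stood apart. In small intestine, Gata4, a factor of the proximal gut, had 0.216, 1.68 and 0.280 RPKM in LCWE intestine, against 8.34, 5.31 and 3.79 RPKM in PBS intestine, and Fabp6, the bile acid binding protein of the distal gut, had 4837, 4843 and 3517 RPKM in LCWE intestine, against 69.4, 1716 and 2991 RPKM in PBS intestine. Each is a single marker of a longer list whose members did not all move the same way, as given below. The summed level of 6 enterocyte markers was 1663 to 5764 RPKM in LCWE intestine, against 8828 to 17985 RPKM in PBS intestine, and that of 3 fat cell markers was 3.79 to 13.0 RPKM in LCWE intestine, against 33.6 to 47.1 RPKM in PBS intestine. Summed levels of 4 colon markers (0.921 to 1.58 RPKM in LCWE intestine, 0.703 to 1.35 RPKM in PBS intestine) and of 3 exocrine pancreas markers (at most 0.0725 RPKM) were low. In liver, 7 of 8 leukocyte markers were called higher, where 3.39% of all genes were. The summed level of the 8 was 312 to 342 RPKM in LCWE liver, against 93.8 to 126 RPKM in PBS liver. Onecut1 had 69.6, 55.6 and 9.47 RPKM in LCWE liver, against 3.47, 81.8 and 53.5 RPKM in PBS liver, low in LCWE replicate 4 and PBS replicate 2. In bulk tissue, fewer cells of a type and less RNA per cell cannot be told apart.

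In control mice the liver held far more P450 message than the small intestine, and the genes that led differed. The summed level of the 89 genes was 4357 ± 229 RPKM in PBS liver and 784 ± 62.3 RPKM in PBS small intestine (SD, n = 3 libraries each). In PBS liver, 15 genes had a mean of at least 100 RPKM, against 3 in PBS small intestine. In 1 fit over the 4 groups, 59 of 65 tested Cyp genes differed between PBS liver and PBS small intestine, where 77.1% of all tested genes did. Of these, 46 were higher in liver, 70.8% of the Cyp genes tested against 16.6% of all genes, and 13 were lower in liver, 20% of the Cyp genes against 60.5% of all genes. Many of these genes, such as Cyp2c39 and Cyp4a31 in liver and Cyp2c65 in intestine, reached 0.5 RPKM in libraries of a single tissue only. They could enter the test only as higher in that tissue, so their part in these counts carries no weight. This limit holds wherever the comparison is used below. The median Cyp gene was 2.05 higher in liver on the log2 scale and the median of all genes was -0.69; quantile scaling moved the median of all genes to 0.01 and the Cyp median to 2.56, with 48 Cyp genes higher in liver and 13 lower.

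The liver total was led by Cyp2e1, which oxidises ethanol and paracetamol, at 737 ± 79.5 RPKM in PBS liver and 4.32 ± 1.29 RPKM in PBS intestine. Cyp3a11, the mouse counterpart of the main human drug-oxidising CYP3A enzyme, followed at 421 ± 57.2 RPKM in PBS liver and 42.9 ± 6.04 RPKM in PBS intestine. Cyp2j5, an arachidonic acid epoxygenase, had 353 ± 42.5 RPKM in PBS liver and 1.40 ± 0.229 RPKM in PBS intestine. By subfamily, Cyp2c made up 25.9% of the P450 total in PBS liver, Cyp2e 16.9%, Cyp3a 14.5% and Cyp2d 11.5%. These values placed the drug and fatty acid oxidising Cyp2 and Cyp3 genes ahead of every other family in liver.

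The intestinal total had another make-up. Cyp4f genes, whose enzymes oxidise leukotrienes and other fatty acids, made up 35.3% of the P450 total in PBS intestine, Cyp3a 26.3%, Cyp4v 12.8% and Cyp2c 11.3%. Cyp4f14, a leukotriene B4 hydroxylase, led at 56.5 ± 5.59 RPKM in PBS liver and 223 ± 11.3 RPKM in PBS intestine. Cyp3a13 came next, at 39.2 ± 6.48 RPKM in PBS liver and 114 ± 8.83 RPKM in PBS intestine. Cyp4v3, a fatty acid hydroxylase, was nearly even, at 135 ± 35.4 RPKM in PBS liver and 100.02 ± 40.1 RPKM in PBS intestine, and its difference did not pass the test (adjusted p = 0.230, limma). The 13 genes that were lower in liver than in intestine were Cyp1a1, Cyp1b1, Cyp2b10, Cyp2c55, Cyp2c65, Cyp2c66, Cyp2s1, Cyp3a13, Cyp4b1, Cyp4f14, Cyp4f16, Cyp4f18 and Cyp4f40. Among them, Cyp1a1, Cyp1b1, Cyp2c65, Cyp2c66, Cyp2s1, Cyp4f18 and Cyp4f40 reached 0.5 RPKM in intestinal libraries only and have the limit given above.

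**Figure D1:**
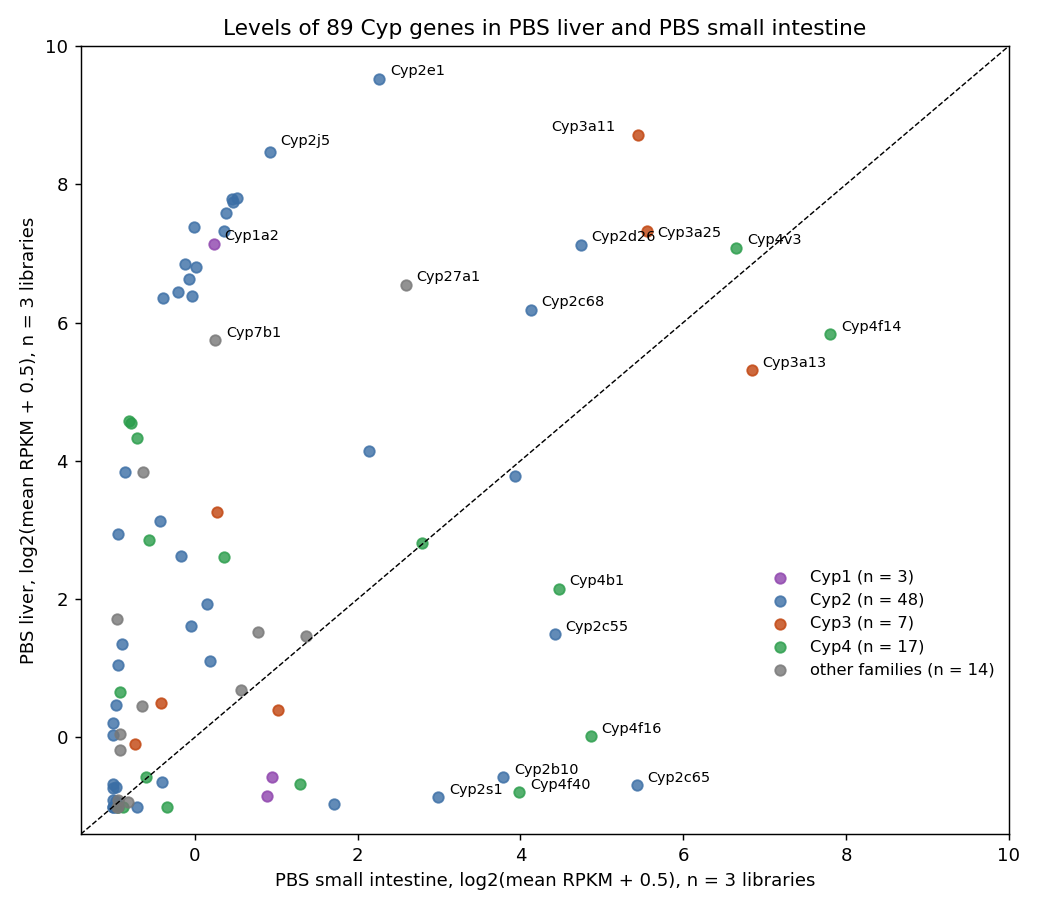
Mean level of each of the 89 Cyp genes in PBS liver (vertical axis) and PBS small intestine (horizontal axis), both as log2(mean RPKM + 0.5) over 3 libraries, coloured by family; the dashed line marks equal levels. Most genes lie above the line, and Cyp4f14 and Cyp3a13 lie furthest right.

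Neighbouring genes of 1 subfamily differed in tissue. The 15 Cyp2c genes lie in order on chromosome 19 between positions 39007019 and 44029208 (mm10). The first 3 in that order, Cyp2c55, Cyp2c65 and Cyp2c66, were lower in PBS liver than in PBS intestine, and each of the next 12 was higher in PBS liver. Cyp2c65 had 0.139, 0.0868 and 0.132 RPKM in PBS liver, against 51.3, 38.9 and 37.4 RPKM in PBS intestine, and its second neighbour Cyp2c29 had 247, 222 and 194 RPKM in PBS liver, against 0.839, 0.939 and 0.841 RPKM in PBS intestine. Neither gene's groups overlapped. In the Cyp3a subfamily on chromosome 5, Cyp3a13 lies apart from the other 6 genes and was the only 1 of the 7 called lower in liver. Among the 8 Cyp4f genes on chromosome 17, Cyp4f14, Cyp4f16 and Cyp4f40 were lower in liver than in intestine, Cyp4f15 and Cyp4f17 were higher, and Cyp4f13 did not differ (adjusted p = 0.946, limma).

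Of the genes with set metabolic steps, Cyp27a1, the sterol side-chain hydroxylase of bile acid synthesis, had 92.7 ± 9.91 RPKM in PBS liver and 5.54 ± 0.418 RPKM in PBS intestine. Cyp7b1, the oxysterol hydroxylase, had 53.1 ± 15.8 RPKM in PBS liver and 0.690 ± 0.159 RPKM in PBS intestine. Cyp26a1, which clears retinoic acid, had 13.7 ± 3.03 RPKM in PBS liver and 0.146 ± 0.00433 RPKM in PBS intestine. All of these were higher in liver by the test. Cyp20a1, an enzyme with no settled substrate, was even, at 2.26 ± 0.125 RPKM in PBS liver and 2.07 ± 0.354 RPKM in PBS intestine (adjusted p = 0.4999, limma).

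In liver, few P450 genes passed the test between LCWE and PBS mice. The summed level of the 89 genes was 3962 ± 217 RPKM in LCWE liver and 4357 ± 229 RPKM in PBS liver (SD, n = 3 each), and the groups overlapped in their lowest and highest libraries. Among 58 tested Cyp genes, 1 was called, Cyp2b10, which rose. Of all tested genes, 4.04% were called, 3.39% higher and 0.646% lower. Cyp2b10 passed the filter through LCWE liver alone, so it could enter the test only as a higher gene. Fold changes of 50 of the 58 lay within 0.5 of 0 on the log2 scale. The median was -0.07 over the Cyp genes and 0.06 over all genes. These small medians moved with the setting, to -0.14 and -0.03 with quantile scaling, to -0.17 and -0.02 with median-ratio scaling and to 0.0049 and 0.10 with a replicate block.

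Cyp2b10, the classical target of CAR and a metaboliser of barbiturates and many drugs, had 1.65, 1.33 and 2.32 RPKM in LCWE liver, against 0.148, 0.291 and 0.0722 RPKM in PBS liver. All LCWE libraries were above all PBS libraries, but both sets were low for a liver P450. The log2 fold change was 1.75 ± 0.21 (SE; adjusted p = 0.0108, limma), and the means differed 10.3-fold in RPKM. The gene passed the filter through its LCWE libraries alone, where it is high, so its liver difference is given as a value only. Its call was lost without LCWE replicate 1 (adjusted p = 0.0512).

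The other low p-values in liver were mostly for genes with lower levels after LCWE. At an unadjusted p below 0.05, 9 Cyp genes were lower, 15.5% of those tested against 5.82% of all genes, and 4 were higher, 6.90% against 12.9% of all genes. The 9 were Cyp2d9, Cyp2d26, Cyp2d40, Cyp2c44, Cyp2c55, Cyp2a5, Cyp2j9, Cyp2u1 and Cyp3a25, and in each the LCWE and PBS libraries did not overlap. Such a gap with LCWE below was seen in 11 Cyp genes, 19.0% of those tested, against 8.84% of all genes. None of the 9 passed the adjusted threshold in the fit of liver alone, and Cyp2j9 did in the fit over all 4 groups, where 3 Cyp genes (5.17%) and 6.85% of all genes were called. The summed level of 5 hepatocyte markers was 17789 to 20313 RPKM in LCWE liver, against 20982 to 33378 RPKM in PBS liver. Of the 5, 0 were called, and at an unadjusted p below 0.05 2 were lower and 1 was higher. The leukocyte markers rose, as given above, and the part of either list in the lower Cyp values was not tested.

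Cyp2u1, a long-chain fatty acid hydroxylase, had 0.689, 1.01 and 0.736 RPKM in LCWE liver, against 1.34, 1.99 and 1.64 RPKM in PBS liver. Its log2 fold change was -0.71 ± 0.16 (SE; adjusted p = 0.0670, limma), and it was called under quantile scaling, under median-ratio scaling, with voom and without PBS replicate 2. Cyp2j9, an arachidonic acid hydroxylase known mainly from brain, had 1.16, 1.66 and 0.776 RPKM in LCWE liver, against 1.91, 2.74 and 2.99 RPKM in PBS liver. Its log2 fold change was -0.86 ± 0.23 (SE; adjusted p = 0.102, limma). Both genes were at the low end of liver P450 levels, and every LCWE library was below every PBS library.

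Among abundant liver genes the shifts were small. Cyp3a25 had 128, 114 and 126 RPKM in LCWE liver, against 170.3, 158 and 149 RPKM in PBS liver, a log2 fold change of -0.37 ± 0.10 (adjusted p = 0.0981, limma). Cyp2c44, an arachidonic acid epoxygenase, had 63.2, 70.2 and 66.9 RPKM in LCWE liver, against 78.1, 86.7 and 84.9 RPKM in PBS liver, a log2 fold change of -0.32 ± 0.09 (adjusted p = 0.129, limma). Cyp2a5, the mouse coumarin hydroxylase, had 71.3, 60.4 and 62.9 RPKM in LCWE liver, against 78.4, 92.2 and 74.4 RPKM in PBS liver, a log2 fold change of -0.33 ± 0.12 (adjusted p = 0.210, limma). Cyp2c55, low in liver, had 1.56, 1.82 and 1.76 RPKM in LCWE liver, against 2.41, 2.21 and 2.31 RPKM in PBS liver (log2 fold change -0.35, adjusted p = 0.153). In all 4 the LCWE libraries were the lower ones without overlap, by less than 0.5 on the log2 scale.

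Across the Cyp2d subfamily the liver sum was 408 ± 22.4 RPKM in LCWE liver and 499 ± 17.5 RPKM in PBS liver. Cyp2d9 had 137, 130.2 and 123 RPKM in LCWE liver, against 154, 164 and 163 RPKM in PBS liver (log2 fold change -0.30, adjusted p = 0.139, limma). Cyp2d26 had 118, 117 and 111 RPKM in LCWE liver, against 156, 136 and 125 RPKM in PBS liver (log2 fold change -0.27, adjusted p = 0.263), and Cyp2d40 had 10.8, 10.9 and 9.15 RPKM in LCWE liver, against 16.9, 12.5 and 11.9 RPKM in PBS liver (log2 fold change -0.39, adjusted p = 0.244). Cyp2d10, the highest of the subfamily, had 141, 139.8 and 119.5 RPKM in LCWE liver, against 144, 186 and 167 RPKM in PBS liver (log2 fold change -0.31, adjusted p = 0.271). The LCWE libraries lay below the PBS libraries in each, and none was called. Cyp2d11, Cyp2d12 and Cyp2d22 had overlapping groups.

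The 7 most abundant genes of PBS liver, unlike Cyp2d10, Cyp2d9 and Cyp3a25 after them, had overlapping groups. Cyp2e1 had 816, 569 and 535 RPKM in LCWE liver, against 788, 778 and 646 RPKM in PBS liver (log2 fold change -0.22, adjusted p = 0.576, limma). Cyp3a11 had 371, 388 and 434 RPKM in LCWE liver, against 356, 463 and 443 RPKM in PBS liver (log2 fold change -0.08, adjusted p = 0.807). Cyp1a2, an AHR target that oxidises caffeine and arylamines, had 168, 127 and 137 RPKM in LCWE liver, against 123, 151 and 147 RPKM in PBS liver (log2 fold change 0.04, adjusted p = 0.920). These groups interleaved. Cyp2j5 had 321, 285 and 343 RPKM in LCWE liver, against 402, 333 and 324 RPKM in PBS liver (log2 fold change -0.16, adjusted p = 0.568), and Cyp2a12, which acts on bile acids, had 94.9, 82.0 and 100.3 RPKM in LCWE liver, against 112, 93.0 and 91.3 RPKM in PBS liver. Cyp2c67, the highest of its subfamily, had 170.3, 209.7 and 198 RPKM in LCWE liver, against 135, 282 and 254 RPKM in PBS liver, a range within each group wider than the difference between them.

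Some Cyp4 genes had higher estimates in LCWE liver, and none was called. Cyp4f16, with low liver levels, had 1.01, 1.26 and 0.782 RPKM in LCWE liver, against 0.832, 0.379 and 0.329 RPKM in PBS liver, overlapping in 1 library pair (log2 fold change 0.61, adjusted p = 0.208, limma). Cyp4a32, of the PPAR alpha-controlled fatty acid hydroxylases, had 9.02, 12.5 and 9.86 RPKM in LCWE liver, against 7.20, 7.29 and 5.81 RPKM in PBS liver, a log2 fold change of 0.59 ± 0.15 (SE; adjusted p = 0.0933, limma). Cyp4a31 had 1.46, 4.87 and 1.26 RPKM in LCWE liver, against 1.22, 1.25 and 0.750 RPKM in PBS liver, with LCWE replicate 2 well above the rest (adjusted p = 0.397). Cyp4a10 had 15.5, 47.9 and 26.4 RPKM in LCWE liver, against 30.8, 24.1 and 13.9 RPKM in PBS liver and Cyp4a14 had 4.13, 42.8 and 16.2 RPKM in LCWE liver, against 21.4, 30.7 and 17.97 RPKM in PBS liver, and both overlapped (log2 fold changes 0.30 and -0.64, adjusted p = 0.762 and 0.695). LCWE replicate 2 was the highest liver library for all 4 of these genes. By exact match of 50-base stretches to the transcript annotation, 43.8% of the stretches of Cyp4a32 also occur in other genes, mostly Cyp4a10, so reads may have been split or dropped between them.

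**Figure D2:**
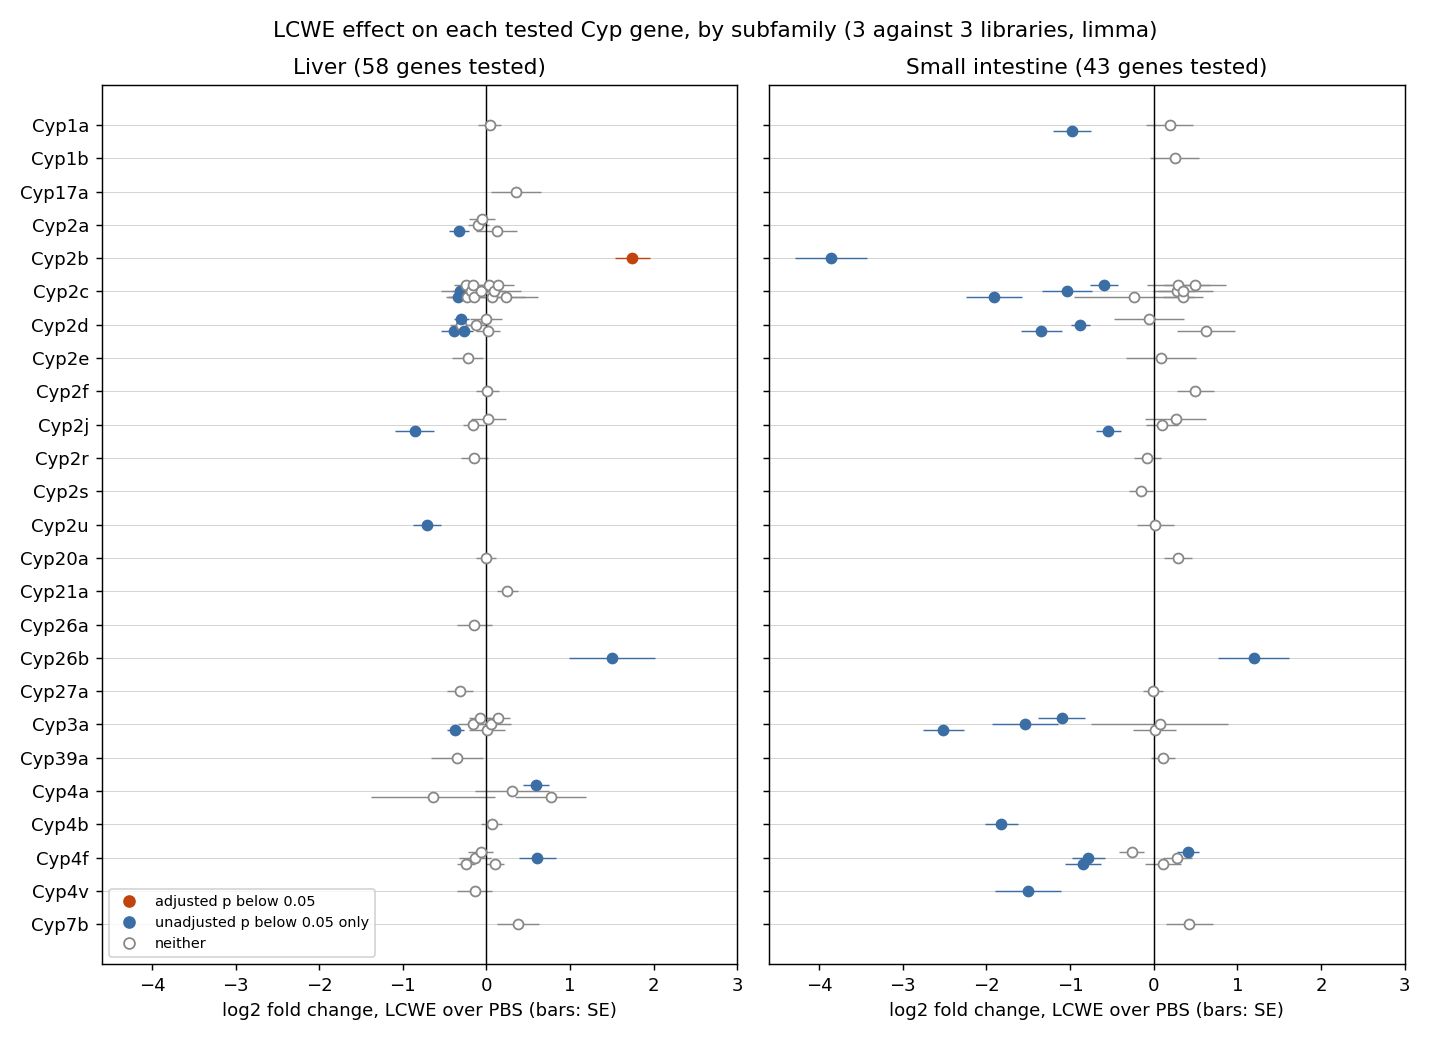
Log2 fold change of LCWE over PBS with its SE for each tested Cyp gene, by subfamily, in liver (left, 58 genes) and small intestine (right, 43 genes). Red marks an adjusted p below 0.05 and blue an unadjusted p below 0.05 only; in liver most genes lie near 0 and Cyp2b10 is at 1.75, while in intestine the blue points reach -3.86.

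In small intestine the summed P450 message was lower in LCWE mice, at 414 ± 109 RPKM in LCWE intestine and 784 ± 62.3 RPKM in PBS intestine (SD, n = 3 each; LCWE libraries 534, 389.8 and 319.8 RPKM, PBS libraries 850.0, 775 and 726 RPKM). The groups did not overlap. No single gene passed the adjusted threshold: limma called 0 of 43 Cyp genes and 0% of all 17510 genes tested, voom on recovered reads also called 0 Cyp genes. At an unadjusted p below 0.05, 15 Cyp genes were lower in LCWE intestine and 2 were higher. The 15 were Cyp1a1, Cyp2b10, Cyp2c65, Cyp2c66, Cyp2c68, Cyp2d22, Cyp2d26, Cyp2j6, Cyp3a11, Cyp3a13, Cyp3a25, Cyp4b1, Cyp4f14, Cyp4f16 and Cyp4v3, and the 2 were Cyp4f40 and Cyp26b1. That is 34.9% of the Cyp genes lower against 4.89% of all genes, and 4.65% higher against 7.69% of all genes. The same 15 genes were those in which every LCWE library lay below every PBS library, a gap that 6.15% of all genes showed. Of the 15, Cyp1a1 and Cyp2c66 passed the filter through PBS intestine alone, where they are high. They could enter the test only as lower genes, so their part in these counts carries no weight.

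With the spread estimated over all 4 groups, 10 of the 43 were called, each lower in LCWE intestine, which is 23.3% of the Cyp genes where 0.851% of all genes were called lower. They were Cyp1a1, Cyp2b10, Cyp2c66, Cyp2d22, Cyp2d26, Cyp3a11, Cyp3a13, Cyp3a25, Cyp4b1 and Cyp4f14. Among them, Cyp1a1 and Cyp2c66 have the limit of the filter given above. Without LCWE replicate 1, 4 were called in the fit of intestine alone, Cyp3a11, Cyp3a13, Cyp3a25 and Cyp4b1, and 0.314% of all genes were called lower. Without any other library the count was 0. In LCWE intestine Cyp4f made up 41.9% of the P450 total, Cyp3a 18.5%, Cyp2c 14.8% and Cyp4v 8.52%. The median log2 fold change was 0.01 over all 43 Cyp genes and 0.11 over all genes. The sign of the Cyp median turned on the setting, from -0.27 with a filter at 1 RPKM to 0.08 without LCWE replicate 2, and it was -0.07 with quantile scaling and -0.17 without PBS replicate 2.

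**Figure D3:**
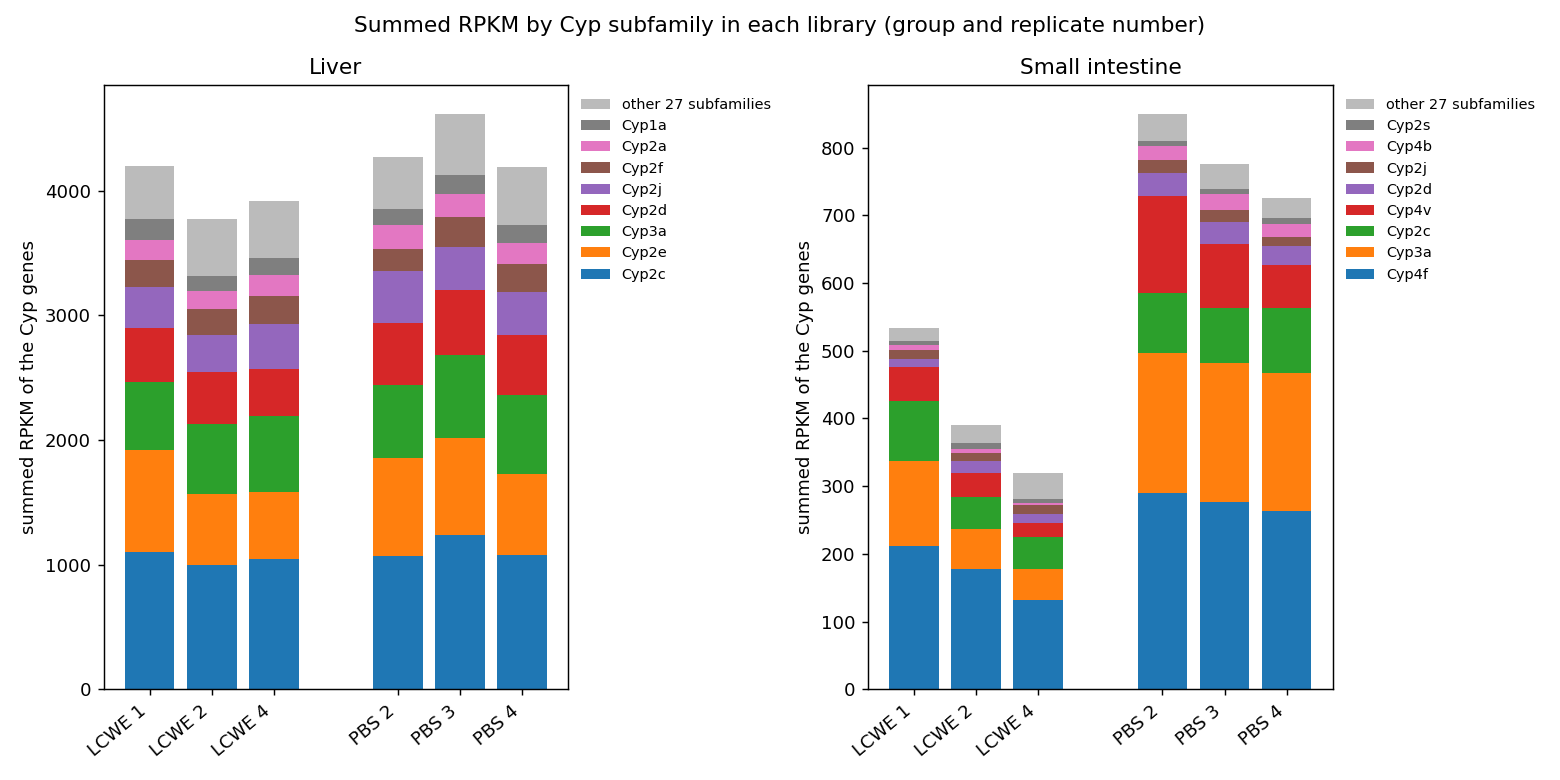
Summed RPKM of the Cyp genes in each library, stacked by subfamily, for liver (left) and small intestine (right; the 2 scales differ, and both start at 0). The liver bars stand between 3769 and 4617 RPKM, and the LCWE intestinal bars, between 319.8 and 534 RPKM, are below all 3 PBS intestinal bars.

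The drug-metabolising Cyp3a subfamily had the largest difference in summed level of any subfamily in intestine, 76.6 ± 43.1 RPKM in LCWE intestine and 206 ± 1.32 RPKM in PBS intestine. Cyp3a11 had 10.5, 5.26 and 6.23 RPKM in LCWE intestine, against 36.5, 48.5 and 43.7 RPKM in PBS intestine, 5.85-fold lower in the mean. Cyp3a13 had 76.0, 32.3 and 23.7 RPKM in LCWE intestine, against 123, 113 and 106 RPKM in PBS intestine, and Cyp3a25 had 33.6, 19.7 and 14.6 RPKM in LCWE intestine, against 46.0, 42.4 and 50.8 RPKM in PBS intestine. All 3 genes had every LCWE library below every PBS library, with LCWE replicate 1 the highest of the LCWE libraries. The log2 fold changes were -2.52 ± 0.25, -1.54 ± 0.39 and -1.10 ± 0.28 (SE), with adjusted p of 0.154, 0.245 and 0.245 by limma. Of the stretches of Cyp3a25, 26.8% are shared, mostly with Cyp3a59, which had 1.27, 0.533 and 0.472 RPKM in LCWE intestine, against 0.837, 0.546 and 0.742 RPKM in PBS intestine and overlapping groups.

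Cyp2b10 showed the steepest difference of any Cyp gene. It had 0.353, 0.764 and 0.112 RPKM in LCWE intestine, against 20.5, 12.8 and 6.67 RPKM in PBS intestine, 32.6-fold lower in the mean (log2 fold change -3.86 ± 0.43, adjusted p = 0.154, limma). Its PBS libraries differed among themselves by a wide margin, and the lowest of them was still above every LCWE library. Cyp1a1, the most sensitive AHR target, had 0.392, 0.496 and 0.487 RPKM in LCWE intestine, against 1.60, 0.863 and 1.85 RPKM in PBS intestine (log2 fold change -0.98 ± 0.22, adjusted p = 0.233). Cyp1a1 and Cyp2c66 passed the filter through their PBS libraries alone.

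The Cyp2c and Cyp2d subfamilies were split. Cyp2c65 had 31.1, 20.2 and 13.2 RPKM in LCWE intestine, against 51.3, 38.9 and 37.4 RPKM in PBS intestine (log2 fold change -1.04, adjusted p = 0.287, limma), and its neighbour Cyp2c66 had 0.281, 0.415 and 0.228 RPKM in LCWE intestine, against 4.46, 2.42 and 1.41 RPKM in PBS intestine (log2 fold change -1.91, adjusted p = 0.186). The LCWE libraries were the lower ones without overlap in both. Cyp2c55, the third gene at that end of the cluster, had 43.6, 7.30 and 11.1 RPKM in LCWE intestine, against 10.4, 15.5 and 36.9 RPKM in PBS intestine, with LCWE replicate 1 and PBS replicate 4 high and the groups overlapping. Cyp3a44 had its 2 highest values in the same libraries, 4.13, 0.264 and 0.933 RPKM in LCWE intestine, against 0.134, 1.45 and 3.03 RPKM in PBS intestine. In the Cyp2d subfamily, Cyp2d26 had 10.2, 13.9 and 6.89 RPKM in LCWE intestine, against 29.5, 27.2 and 21.9 RPKM in PBS intestine and Cyp2d22 had 1.72, 1.92 and 2.09 RPKM in LCWE intestine, against 3.59, 4.28 and 3.91 RPKM in PBS intestine, again without overlap. Their log2 fold changes were -1.34 ± 0.25 and -0.88 ± 0.12, with adjusted p of 0.189 and 0.158 (limma). Cyp2d10 had 0.528, 0.805 and 2.17 RPKM in LCWE intestine, against 0.445, 0.493 and 0.541 RPKM in PBS intestine. Its groups overlapped (log2 fold change 0.62, adjusted p = 0.467, limma), as did those of Cyp2d9 (log2 fold change -0.06).

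Fatty acid and eicosanoid hydroxylases of the Cyp4 family were also among the 15. Cyp4b1, which oxidises fatty acids and activates several lung toxins, had 7.71, 5.55 and 4.38 RPKM in LCWE intestine, against 20.9, 24.2 and 19.8 RPKM in PBS intestine, 3.68-fold lower in the mean (log2 fold change -1.82 ± 0.20, adjusted p = 0.154, limma). Cyp4v3 had 49.6, 36.2 and 20.2 RPKM in LCWE intestine, against 143, 93.8 and 63.4 RPKM in PBS intestine (log2 fold change -1.502 ± 0.39, adjusted p = 0.256). Cyp4f14, the top intestinal P450, had 165, 129 and 89.3 RPKM in LCWE intestine, against 235, 220.3 and 213 RPKM in PBS intestine (log2 fold change -0.84 ± 0.22, adjusted p = 0.247). The libraries did not overlap in any of these, and LCWE replicate 4 was the lowest each time. Its relative Cyp4f16 had 19.5, 17.6 and 12.5 RPKM in LCWE intestine, against 31.8, 30.7 and 23.2 RPKM in PBS intestine (log2 fold change -0.78). Cyp4f40, in the same cluster, had 17.1, 22.9 and 21.7 RPKM in LCWE intestine, against 14.1, 15.4 and 16.4 RPKM in PBS intestine, with all LCWE libraries higher (log2 fold change 0.41, adjusted p = 0.326). Cyp2s1, an epithelial P450 outside the liver, had 6.56, 8.08 and 5.53 RPKM in LCWE intestine, against 7.21, 7.32 and 7.81 RPKM in PBS intestine, with overlapping groups.

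**Figure D4:**
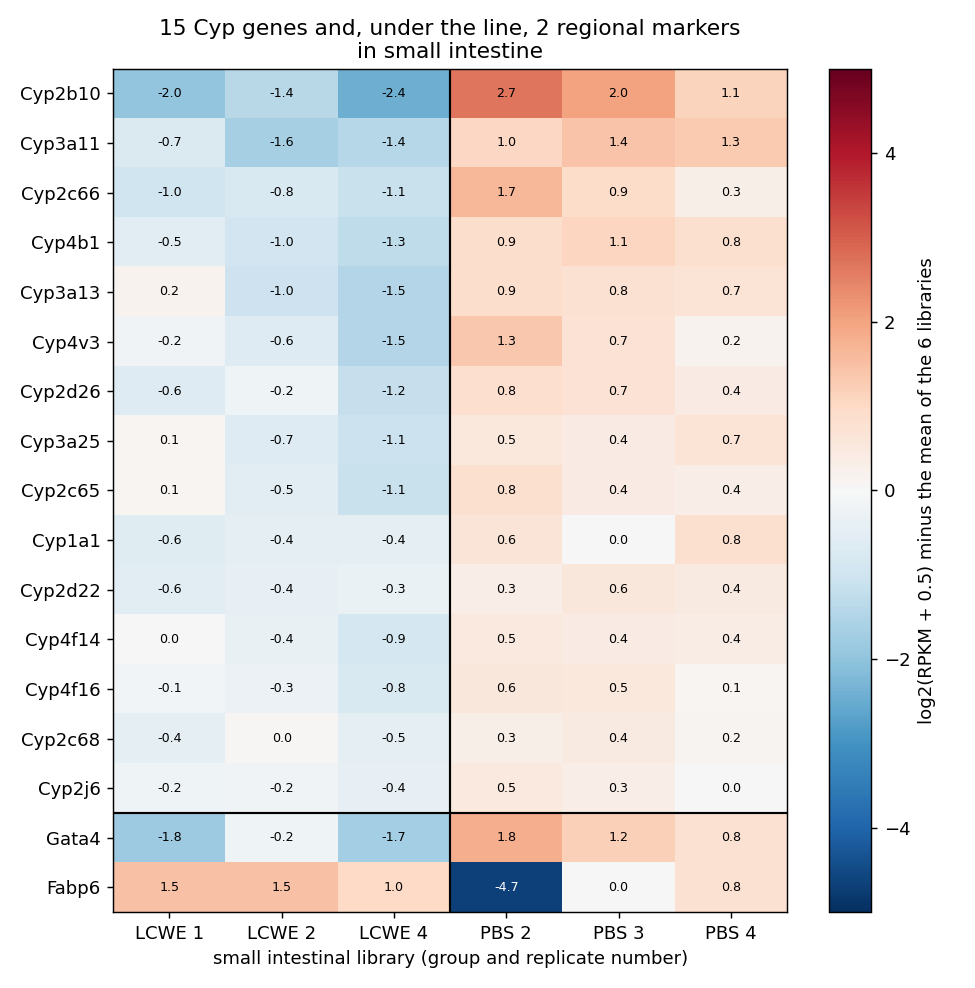
Level of the 15 Cyp genes with an unadjusted p below 0.05 and lower values in LCWE small intestine, and of Gata4 and Fabp6, in each of the 6 intestinal libraries, as log2(RPKM + 0.5) minus the mean of the 6. The 15 genes were chosen by this comparison; all are lower in the 3 LCWE libraries, Gata4 likewise, and Fabp6 is lowest in PBS replicate 2.

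The regional and enterocyte markers given above moved with these genes, and their part in the intestinal values was not tested. Gata4 was lower in every LCWE library than in every PBS library, as the 15 genes were. The summed level of 6 proximal markers was 54.7 to 127 RPKM in LCWE intestine, against 107 to 1676 RPKM in PBS intestine, and that of 4 distal markers was 3913 to 5407 RPKM in LCWE intestine, against 316 to 3386 RPKM in PBS intestine. Of the 5 proximal markers tested, 4 had a lower estimate in LCWE intestine and 1 a higher one. Of the 4 distal markers, 3 had a higher estimate and 1 a lower one. Of the 6 enterocyte markers, Vil1 had 829, 505 and 357 RPKM in LCWE intestine, against 866, 769 and 734 RPKM in PBS intestine and Sis had 231, 129 and 95.4 RPKM in LCWE intestine, against 194, 172 and 199.9 RPKM in PBS intestine, both overlapping, while Apoa4 had 454, 297 and 127 RPKM in LCWE intestine, against 6795, 3054 and 1365 RPKM in PBS intestine without overlap.

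A second feature touched the liver-type Cyp genes in intestine. For 16 Cyp genes with a liver mean of at least 50 RPKM and an intestinal mean under 2% of it, the highest intestinal value of all 16 was in LCWE replicate 4. There the median was 1.25% of the liver level, against 0.376% to 0.489% in the other 5 intestinal libraries. The 5 hepatocyte markers showed the same, at a median of 1.05% of the liver level in LCWE replicate 4 and 0.356% to 0.429% in the others. Alb, the albumin gene, had 51.6, 60.2 and 145 RPKM in LCWE intestine, against 52.9, 60.2 and 59.2 RPKM in PBS intestine. Intestinal values of such genes, among them Cyp2c70, Cyp2e1, Cyp2f2 and Cyp2d10, therefore move with the hepatocyte markers, and the part of liver RNA in them was not tested.

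The effect of LCWE differed between the tissues for 4 of 65 Cyp genes, tested in 1 fit over all groups as the effect in liver less that in intestine, where 0.736% of all genes were called and 0.532% had a positive difference. All 4 differences were positive. The count of 4 includes Cyp2c66, whose entry into the test is limited as given below. Cyp2b10 differed most, by 5.60 ± 0.51 on the log2 scale (SE; adjusted p = 0.00178, limma), with opposite directions in the tissues. Cyp3a11 differed by 2.44 ± 0.30 (adjusted p = 0.00973), Cyp4b1 by 1.88 ± 0.24 (adjusted p = 0.0127) and Cyp2c66 by 1.95 ± 0.37 (adjusted p = 0.0440). In liver Cyp4b1 had 3.71, 3.93 and 4.84 RPKM in LCWE mice, against 3.91, 3.83 and 4.09 RPKM in PBS mice, and Cyp2c66 was at most 0.0343 RPKM in any liver library, so its values lie almost wholly in intestine. Cyp2c66 passed the filter through PBS intestine alone, where it is high, so its difference is given as a value only. Its call was lost in 14 alternatives. With a replicate block Cyp3a11 and Cyp4b1 also lost theirs (adjusted p = 0.0536 and 0.0821), and Cyp2b10 kept its call (adjusted p = 0.0414). Of the next smallest p-values, Cyp4f16 differed by 1.39 ± 0.31 (adjusted p = 0.0734) and Cyp2d22 by 0.75 ± 0.18 (adjusted p = 0.0854).

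**Figure D5:**
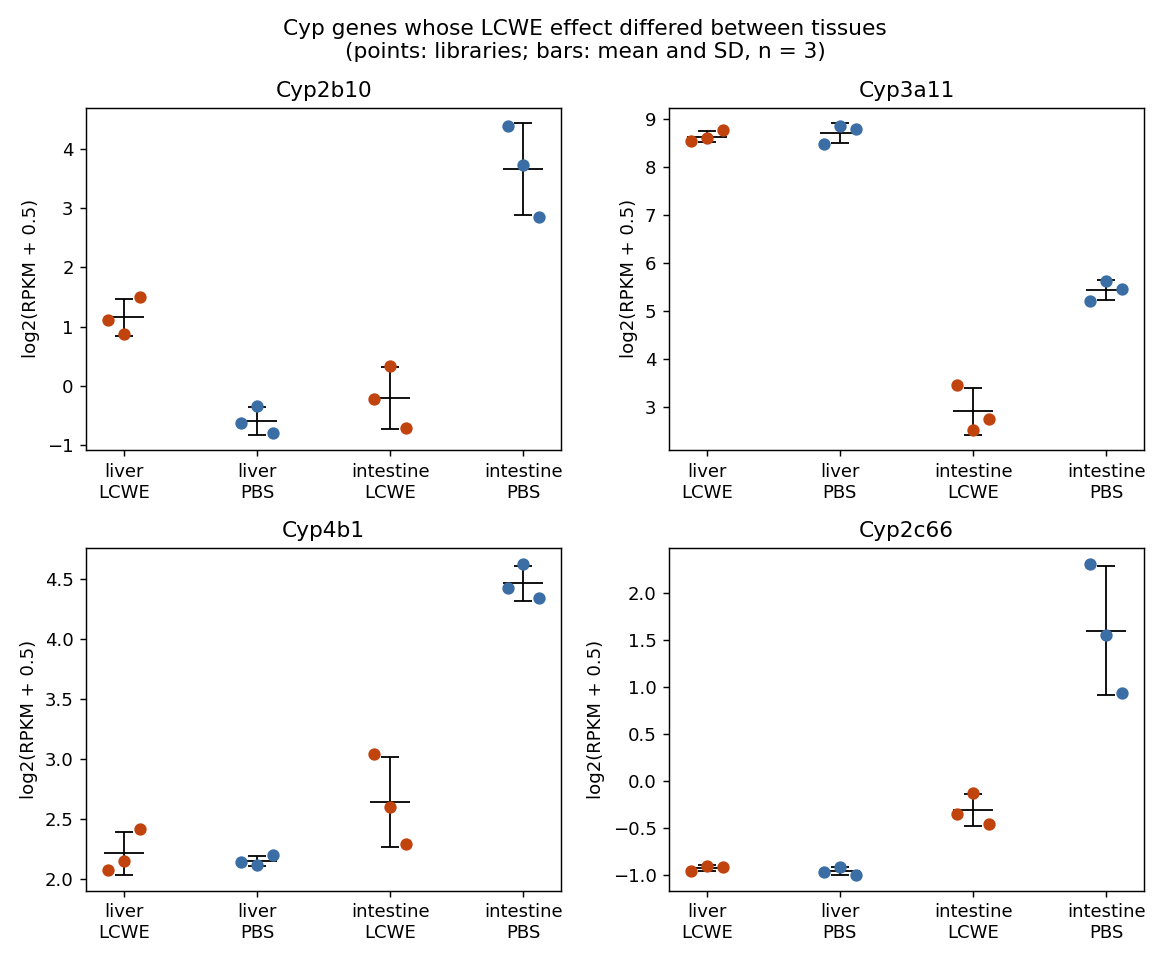
Log2(RPKM + 0.5) of Cyp2b10, Cyp3a11, Cyp4b1 and Cyp2c66 in every library, with LCWE in red and PBS in blue; bars are the mean and SD of 3 libraries, and each panel has its own vertical scale. Liver groups overlap except for Cyp2b10, and intestinal LCWE libraries lie below intestinal PBS libraries in each panel.

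The stretches of 250 bases before the RefSeq start of these 4 genes are shown because the tissue difference of each was called. For Cyp2c66 the limit of the filter given above applies. The sequences are from RefSeq on GRCm38.p6, 5′ to 3′ on the gene's strand, and capitals mark matches to any of the motifs searched. The Cyp2b10 stretch is at chr7:25897408-25897657 on the plus strand, that of Cyp3a11 at chr5:145879855-145880104 on the minus strand, that of Cyp4b1 at chr4:115647722-115647971 on the minus strand and that of Cyp2c66 at chr19:39113648-39113897 on the plus strand. The deposited coordinates start 3 of the genes further upstream, so that the last 110 bases of the Cyp3a11 stretch, 38 of Cyp2b10 and 2 of Cyp4b1 lie inside the gene by those.
Cyp2b10: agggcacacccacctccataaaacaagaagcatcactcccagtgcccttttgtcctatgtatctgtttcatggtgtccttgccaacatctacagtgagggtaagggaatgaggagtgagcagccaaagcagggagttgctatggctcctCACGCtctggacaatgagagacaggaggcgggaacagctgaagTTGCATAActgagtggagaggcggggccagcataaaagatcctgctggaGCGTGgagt
Cyp3a11: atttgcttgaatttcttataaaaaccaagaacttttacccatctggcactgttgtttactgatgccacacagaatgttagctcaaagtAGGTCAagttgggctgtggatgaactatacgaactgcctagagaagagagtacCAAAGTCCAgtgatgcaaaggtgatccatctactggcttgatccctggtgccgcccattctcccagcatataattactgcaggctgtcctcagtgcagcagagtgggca
Cyp4b1: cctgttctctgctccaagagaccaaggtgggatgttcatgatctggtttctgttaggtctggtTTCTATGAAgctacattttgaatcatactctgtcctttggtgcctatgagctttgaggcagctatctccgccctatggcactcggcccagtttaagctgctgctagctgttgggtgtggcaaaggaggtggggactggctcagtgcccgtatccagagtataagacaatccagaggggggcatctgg
Cyp2c66: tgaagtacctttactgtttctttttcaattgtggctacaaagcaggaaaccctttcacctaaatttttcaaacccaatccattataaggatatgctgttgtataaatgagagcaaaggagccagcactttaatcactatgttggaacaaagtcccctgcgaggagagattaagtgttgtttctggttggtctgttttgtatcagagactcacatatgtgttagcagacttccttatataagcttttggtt

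The motifs, searched on both strands, were the nuclear receptor half-site AGGTCA, the HNF4 site CAAAGTCCA, the AHR core GCGTG, the C/EBP site TTNNGNAA and the STAT site TTCNNNGAA, and none of these overlapped another in the 4 stretches. No motif was held by all 4. Cyp3a11 held AGGTCA at 162 to 157 bases and CAAAGTCCA at 109 to 101 bases before the RefSeq start, Cyp2b10 held 2 AHR cores and 1 C/EBP site, Cyp4b1 held 1 STAT site, and Cyp2c66 held none. By the deposited starts, CAAAGTCCA of Cyp3a11 and the AHR core of Cyp2b10 nearest the start lie inside the gene. Among the 70 Cyp genes with such a stretch, 8 held CAAAGTCCA, 11.4%, against 0.384% of 32851 promoters of all genes. AGGTCA was found in 16 of the 70, 22.9%, against 14.0% of all promoters. GCGTG was in 15 (21.4% against 28.2%), TTNNGNAA in 26 (37.1% against 36.9%) and TTCNNNGAA in 4 (5.71% against 7.02%). The Cyp share was counted by gene and the share of all by promoter, and related Cyp genes of a cluster were each counted. A match describes letters only.

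P450 enzymes of the endoplasmic reticulum take their electrons from P450 reductase (Por) and cytochrome b5, and every P450 needs haem. Of 22 genes of these partners and of haem supply, all tested, 1 fell and 0 rose in liver, against 0.646% and 3.39% of all genes. In small intestine 0 were called, as were 0% of all genes. The liver gene was Blvrb, a biliverdin reductase, with 13.7, 14.1 and 15.1 RPKM in LCWE liver, against 21.6, 24.4 and 23.2 RPKM in PBS liver (log2 fold change -0.67 ± 0.10, adjusted p = 0.0185, limma). Por had 20.9, 15.7 and 15.3 RPKM in LCWE intestine, against 33.6, 29.1 and 31.6 RPKM in PBS intestine, and 44.1, 43.5 and 57.6 RPKM in LCWE liver, against 36.4, 41.1 and 40.8 RPKM in PBS liver. In intestine the LCWE libraries were the lower ones and in liver the higher ones, without overlap. The difference between tissues was 1.14 ± 0.20 (adjusted p = 0.0307, limma), the single call among the 22 genes, where 0.736% of all genes were called. At an unadjusted p below 0.05, 5 were lower in LCWE intestine, Por, Cyb5a, Cyb5b, Cyb5r3 and Alas1, and 0 were higher, that is 5 of 22 where 4.89% of all genes were lower. In liver 8 of the 22 were lower and 2 were higher at that threshold, against 5.82% and 12.9% of all genes. Alas1, the first enzyme of haem synthesis, had 104, 114 and 30.2 RPKM in LCWE liver, against 9.01, 69.0 and 63.7 RPKM in PBS liver, with PBS replicate 2 and LCWE replicate 4 low as for Onecut1.

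Of 29 regulators of Cyp genes, 26 were tested in liver, where 1 rose and 0 fell, against 3.39% and 0.646% of all genes. The 1 rise in 26 is near the share of all genes. In small intestine 25 were tested and 0 were called, as were 0% of all genes. At an unadjusted p below 0.05, 2 were higher and 5 lower in liver, against 12.9% and 5.82% of all genes, and 3 were higher and 1 lower in small intestine, against 7.69% and 4.89% of all genes. Ahr, the receptor that controls family Cyp1, rose in liver, with 3.80, 3.94 and 2.93 RPKM in LCWE liver, against 1.97, 1.86 and 1.498 RPKM in PBS liver (log2 fold change 0.83 ± 0.15, adjusted p = 0.0369, limma). Its target Cyp1a1 was at most 0.210 RPKM in any liver library, and Cyp1a2 had overlapping groups, as given above. Cyp1b1 had 0.277, 0.156 and 0.247 RPKM in LCWE liver, against 0.114, 0.0327 and 0.0198 RPKM in PBS liver. Ahrr, of the same list of regulators, had 0.0848, 0.0430 and 0.0648 RPKM in LCWE liver, against 0.0240, 0.0180 and 0.0164 RPKM in PBS liver. Both were without overlap but under the filter in liver, so neither was tested there. Such a gap with LCWE above was seen in 18.7% of all genes tested in liver. Nr1i3, which encodes CAR, had 11.2, 13.1 and 17.9 RPKM in LCWE liver, against 24.5, 21.3 and 18.01 RPKM in PBS liver (adjusted p = 0.163), and 1.09, 1.78 and 1.69 RPKM in LCWE intestine, against 4.50, 3.09 and 2.06 RPKM in PBS intestine (adjusted p = 0.318). Nr1i2, which encodes PXR, had 54.2, 43.2 and 33.3 RPKM in LCWE intestine, against 49.2, 43.9 and 42.5 RPKM in PBS intestine. CAR message was lower in LCWE mice in both tissues without overlap in values and without a call, and PXR message overlapped. Nr1h4, the bile acid receptor FXR, was the single regulator called for the tissue difference (-1.70 ± 0.29, adjusted p = 0.0273, limma), with 49.3, 30.2 and 41.0 RPKM in LCWE intestine, against 12.2, 14.6 and 21.6 RPKM in PBS intestine. That is 1 of 28 regulators tested for it, where 0.736% of all genes were called.

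In mouse liver several Cyp genes are known to differ between the sexes. Of 5 male-biased genes, Cyp2d9, Cyp2u1, Cyp4a12a, Cyp4a12b and Cyp7b1, 0 were called in liver, and 3 were lower at an unadjusted p below 0.05, Cyp2d9, Cyp2u1 and Cyp4a12a, where 5.82% of all genes were lower. The lists of sex-biased genes hold some, such as Cyp4a12a and Cyp4a12b, that are not among the 89. Cyp4a12a had 49.9, 44.2 and 57.4 RPKM in LCWE liver, against 61.0, 85.2 and 85.7 RPKM in PBS liver (adjusted p = 0.112, limma), below PBS in every LCWE library, and Cyp7b1 had 80.0, 55.6 and 67.6 RPKM in LCWE liver, against 35.5, 65.8 and 58.0 RPKM in PBS liver with overlap. Of 11 female-biased genes, 7 were tested in liver, 0 were called and 0 had an unadjusted p below 0.05. Some were low, as in Cyp2a4 with 1.21, 1.52 and 1.74 RPKM in LCWE liver, against 1.48, 1.86 and 1.35 RPKM in PBS liver, Cyp17a1 with 1.01, 1.58 and 0.970 RPKM in LCWE liver, against 1.54, 0.515 and 0.563 RPKM in PBS liver and Cyp3a44 with 0.819, 0.590 and 0.998 RPKM in LCWE liver, against 0.491, 1.11 and 0.829 RPKM in PBS liver. Cyp4a14, also on this list, was not low, with 4.13, 42.8 and 16.2 RPKM in LCWE liver, against 21.4, 30.7 and 17.97 RPKM in PBS liver. Cyp2b9 and Cyp2b13 were at most 0.0716 RPKM in all 12 libraries, and Cyp3a16 was at most 0.548 RPKM. Cyp2c40 had 7.67, 4.11 and 13.2 RPKM in LCWE liver, against 3.45, 13.9 and 7.41 RPKM in PBS liver and Cyp2c69 had 4.66, 2.97 and 7.74 RPKM in LCWE liver, against 2.51, 9.38 and 5.14 RPKM in PBS liver; 60.3% and 54.3% of their stretches are shared with other genes.

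Among the genes of retinoid, sterol and steroid steps, Cyp26b1, a retinoic acid hydroxylase, had the highest estimate of the Cyp genes in intestine and the second highest, after Cyp2b10, in liver. It had 6.49, 1.55 and 5.002 RPKM in LCWE liver, against 1.06, 1.84 and 0.451 RPKM in PBS liver, and 1.32, 3.01 and 5.16 RPKM in LCWE intestine, against 0.949, 1.42 and 0.586 RPKM in PBS intestine. LCWE replicate 2 in liver lay within the PBS range, and in intestine LCWE replicate 1 did. The log2 fold changes were 1.502 ± 0.52 in liver and 1.19 ± 0.42 in intestine (adjusted p = 0.183 and 0.343, limma). Cyp26a1 had 15.3, 11.3 and 10.4 RPKM in LCWE liver, against 16.0, 10.3 and 14.9 RPKM in PBS liver, Cyp27a1 had 69.4, 65.3 and 89.7 RPKM in LCWE liver, against 98.2, 81.3 and 98.6 RPKM in PBS liver and Cyp39a1, an oxysterol hydroxylase, had 0.967, 1.98 and 2.38 RPKM in LCWE liver, against 1.49, 2.73 and 2.88 RPKM in PBS liver, and none was called. Cyp2r1, the vitamin D hydroxylase of liver, had 2.34, 3.09 and 3.39 RPKM in LCWE liver, against 2.997, 3.79 and 3.09 RPKM in PBS liver, with overlap. Cyp21a1, the steroid hydroxylase of the adrenal, had 3.40, 3.19 and 3.55 RPKM in LCWE liver, against 2.38, 3.22 and 2.73 RPKM in PBS liver (adjusted p = 0.367), and 21.3% of its stretches are shared with a pseudogene.

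The 24 genes tested in neither tissue had no value above 0.698 RPKM, which was Cyp46a1, the brain cholesterol hydroxylase, in a PBS liver library. Among them are the adrenal genes Cyp11b1 and Cyp11b2, the steroid side-chain enzyme Cyp11a1 (at most 0.162 RPKM), the kidney vitamin D gene Cyp27b1, and 5 of the 8 Cyp2j genes. Cyp2b23 was listed at 0 in all 12 libraries. Over all 89 genes, 22 share more than 20% of their 50-base stretches with another gene, and 20 share none. Among the 4 genes called for the tissue difference, the shared part was 8.70% for Cyp2b10, 6.73% for Cyp3a11, 8.26% for Cyp4b1 and 19.5% for Cyp2c66, the last mostly with Cyp2c65.

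The authors' deposited table of their own comparisons holds genes whose p is under 0.05 and whose change reaches 2-fold. Of the 797 genes that the authors' deposited table lists for liver, 7 are among the 89. They are Cyp1b1, Cyp26b1, Cyp2b10, Cyp2j9, Cyp2u1, Cyp46a1 and Cyp4a31, of which 3 have a negative log2 fold change. The authors' false discovery rates there were 0.00173 for Cyp2b10, 0.00771 for Cyp2u1 and 0.0206 for Cyp2j9. Those of Cyp1b1, Cyp26b1, Cyp46a1 and Cyp4a31 were 0.0513, 0.0780, 0.136 and 0.166, above 0.05. For small intestine the authors' deposited table lists 220 genes, 11 of them among the 89, of which 9 are negative. The lowest false discovery rate of any gene it lists there is 0.469. For Cyp2b10 the authors' deposited table gives log2 fold changes of 3.20 in liver and -4.77 in small intestine.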

How the data were processed

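Total RNA of 12 samples was sequenced after TRIzol extraction and DNase I treatment, per the labels' protocols. The authors deposited 1 expression table in RPKM per gene and library, with gene length and mm10 coordinates per the file headers. Tools listed in the submitters' processing notes, with no role given, are edgeR 3.12.1, Subread 1.5.1, featureCounts and Trimmomatic 0.36, and the build is mm10. The aligner and strandedness are not given in the sources used here, so overlapping and antisense genes cannot be told apart. The table has 16 columns of libraries, of which 4 belong to no sample here and were not used. The product of the deposited RPKM, gene length and library scale was a whole read number (tolerance 0.001) for 100% of nonzero values. The authors' deposited comparison table gives p-values, false discovery rates and log2 fold changes, and was used only where named.

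Tests used limma 3.58.1 (R 4.3.3) on log2(RPKM + 0.5), with a mean-variance trend, two-sided and Benjamini-Hochberg adjusted over all genes tested, each tissue apart, for genes with at least 0.5 RPKM in at least 3 libraries. The tissue difference and PBS liver against PBS intestine came from 1 fit over the 4 groups. The scripts were tested on simulated data with the same dispersion for every gene of a tissue. Of 2-fold changes, 85.6% were recovered in liver and 79.6% in small intestine. Unchanged genes were also called, 27 in liver and 15 in small intestine. An exact permutation test of 3 against 3 cannot give a two-sided p below 0.1. Alternatives were 2 other pseudocounts, no filter and a stricter one, quantile and median-ratio scaling, voom on the recovered reads, 1 fit over the 4 groups, a replicate block, and leaving out each library.

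Genes named with values were every called Cyp gene, the 12 smallest p-values per tissue, the highest gene of each family and of each subfamily with at least 3 members, the 6 smallest p-values of the tissue difference and the sex-biased list; others may be named with their level. The members, gene lists and tests were chosen with earlier results of these data known. Shared stretches were counted in GENCODE M21 (GRCm38, the assembly of mm10), where 88 of the 89 genes matched by symbol and position. Promoters are from RefSeq (70 of 89 matched).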

Additional observations from a re-analysis of the deposited data

Results flagged for a closer look

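For 4 Cyp genes the effect of LCWE differed between liver and small intestine by a test of the difference itself, in 1 fit over the 4 groups. The liver effect minus the intestinal effect was 5.602 for Cyp2b10, 2.442 for Cyp3a11, 1.884 for Cyp4b1 and 1.946 for Cyp2c66 on the log2 scale (limma). Cyp2c66 passed the filter through PBS intestine alone, where it is high, and with a replicate block only Cyp2b10 of the 4 was called. In all 4 the intestinal LCWE libraries lay below the PBS libraries. Gata4 and the summed enterocyte markers were also lower in every LCWE intestinal library than in every PBS one. The summed proximal markers overlapped between the groups, and 1 of the 5 proximal markers tested had a higher estimate in LCWE intestine. Of the enterocyte markers, Vil1 and Sis overlapped. The part of all these markers in the differences was not tested.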

How the results depend on the processing

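The count of Cyp genes called in liver, 1 in the main analysis, was 2 with quantile scaling, with median-ratio scaling, with voom and without PBS replicate 2, each time with Cyp2u1 added, and 3 in 1 fit over the 4 groups, with Cyp2j9 and Cyp4a32 added. It was 0 with a replicate block and without LCWE replicate 1; over the libraries left out it ranged from 0 to 2. In small intestine the count of 0 became 10 in 1 fit over the 4 groups and 4 without LCWE replicate 1, and ranged from 0 to 4 over the libraries left out. For the tissue difference the count of 4 became 1, Cyp2b10, with a replicate block (Cyp3a11, Cyp4b1 and Cyp2c66 lost) and 9 without intestinal LCWE replicate 1, and ranged from 3 to 9 over the libraries left out. For PBS liver against PBS intestine the count of 59 ranged from 58 to 60 over the libraries left out, was 67 with no filter, and was 59 with a replicate block. Leaving out a library brings fewer libraries, and 1 fit over the 4 groups brings a shared spread. The causes of these shifts were not tested. Fold changes were recomputed for the genes with the 12 smallest p-values in each tissue and the 6 smallest of the tissue difference, and none of these changed sign under the alternatives run; for other named genes this was not examined. Cyp2c66 lost its call for the tissue difference in 14 alternatives, with adjusted p up to 0.204 (voom).

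Equal replicate numbers were not shown to mark a shared animal or batch: LCWE and PBS libraries of equal number had deviations correlated at -0.102 and -0.0535 in liver and 0.0921 and 0.115 in intestine. Within a tissue the replicate block joined LCWE and PBS libraries of equal number, and only replicates 2 and 4 occur in both groups. For the tissue comparisons it joined liver and intestinal libraries of equal treatment and number. Their deviations were correlated at -0.0527 to 0.0821. With the replicate block Cyp2b10 had an adjusted p of 0.140 in liver. Counting noise limits the genes near the filter, such as Cyp2b10 in liver, whose PBS values lay under 0.5 RPKM.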
